A study of Mus musculus with 6 samples.

Results

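The nuclear genes for subunits of the mitochondrial respiratory chain and ATP synthase were followed in 6 mouse samples, 3 of circulating tumor cells (CTCs) and 3 of tumor cells. The genes were taken by the pattern of their symbols, which gave 83 of the 44804 rows kept from the table. By name, 36 belonged to complex I, 4 to complex II, 9 to complex III, 17 to complex IV and 16 to complex V, and 1, Cycs, encodes the mobile carrier cytochrome c. The grouping goes by symbol. Ndufa4 was counted with complex I, although its protein is now placed in complex IV, and Atp5s and Cox7a2l carry subunit names but are known as accessory factors. Cox4i1, the common form of a complex IV subunit, was not analysed here.

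The CTCs came from mice 1157, 1168 and PDGF1, and each of these mice also gave 1 tumor cell sample, so each group holds 3 samples. A sample is called a cell below and is named by its kind and mouse, as in CTC 1168, although the labels do not state how many cells a tumor cell sample held. The study's title sets CTCs, tumor cells found in the circulation, against tumor cells. The labels give no genotype, age or treatment, and the source label uses the word single for the CTCs but not for the tumor cells, whose sample titles carry the letters GBM without spelling them out. The cells were lysed in a salt buffer with a mild detergent, their mRNA was amplified in 3 rounds of copying and in vitro transcription, and stranded libraries were sequenced. All values are FPKM, fragments per length of transcript relative to all fragments of a library, while read counts and depth are unknown. Whether this length scaling suits amplified mRNA was not tested, so ranks of genes and complexes below are ranks of FPKM.

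The respiratory chain passes electrons from NADH (complex I) and succinate (complex II) through ubiquinone, complex III and cytochrome c to oxygen at complex IV. Complexes I, III and IV pump protons across the inner mitochondrial membrane, and complex V, ATP synthase, uses the return flow to make ATP. Complexes I, III, IV and V each combine proteins encoded in the nucleus with a few encoded in mitochondrial DNA, while complex II is wholly nuclear. Several complex IV subunits have a common form and a second form known from heart and skeletal muscle, testis or lung.

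The libraries of mouse 1168 held more detected rows than the others. Of all 44804 rows, 9702 in CTC 1168 and 11239 in tumor cell 1168 were at 1 FPKM or more. CTC 1157 had 2870 such rows against 4078 in its tumor cell, and CTC PDGF1 had 1486 against 3025. Named protein-coding genes held 85.0% and 71.8% of the FPKM sum in CTC 1168 and tumor cell 1168, and between 11.8% and 51.8% in the other 4 cells. As a measure of background, the 99th percentile of 1447 olfactory and vomeronasal receptor genes lay at 0.770, 0.149 and 2.70 FPKM in CTC 1157, 1168 and PDGF1, against 1.95, 1.27 and 7.10 in the paired tumor cells. Of 8 glial tumor markers, 8 were at 1 FPKM or more in CTC 1168 and 7 in tumor cell 1168, 4 in either cell of mouse 1157 and 0 in either cell of mouse PDGF1. Of all named protein-coding genes, 10.3%, 43.1% and 4.85% were at that level in CTC 1157, 1168 and PDGF1, against 16%, 49.9% and 10.3% in the paired tumor cells. Most glial markers were thus present in mouse 1168, though Pdgfra at 1.42 and Cspg4 at 1.71 FPKM lay near the background of tumor cell 1168. Nkx2-2 lay under it there at 0.752, and Vim at 870 made most of the glial sum of 959 in that cell. In mouse PDGF1 few genes of any kind reached 1 FPKM, so the markers cannot tell the kind of cell. Of 12 microglia and macrophage markers, 4 were at 1 FPKM or more in CTC 1168 and 11 in tumor cell 1168, with summed FPKM of 226 and 2532. The markers therefore do not show tumor cell 1168 to hold glial tumor cells alone. The 6 erythroid markers were all under 1 FPKM in the 6 cells, and of 6 platelet markers only Itga2b, at 68.0 FPKM in CTC 1168 and 6.09 in tumor cell 1168, passed 10 FPKM in any cell.

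Subunit transcripts were abundant in both cells of mouse 1168, present for a subset of genes in CTC 1157, low in tumor cell 1157, where 39 of the 83 lay above the background, and mostly under the background in both cells of mouse PDGF1. Of the 83 genes, 49, 78 and 26 were at 1 FPKM or more in CTC 1157, 1168 and PDGF1, against 53, 78 and 37 in the paired tumor cells. At 10 FPKM or more the numbers were 29, 75 and 0 in the 3 CTCs, against 4, 75 and 6 in tumor cells. Above the receptor percentile of the same cell lay 55, 80 and 9 genes in the 3 CTCs, against 39, 78 and 8 in tumor cells. Of all named protein-coding genes, 13.2%, 53.2% and 2.29% lay above it in the 3 CTCs, against 7.74%, 47.1% and 1.44% in tumor cells. The summed FPKM of the subunits was 22950.5, 78401 and 90.2 in the 3 CTCs, against 234, 44033 and 277 in tumor cells. That was 9.71%, 10.8% and 0.192% of all FPKM in the CTCs, against 0.291%, 7.15% and 0.540% in the tumor cells. Both cells of mouse 1168 lay above every other cell for 70 of the 83 genes, so for these the levels did not separate by kind of cell. The share of all rows that did so was not counted, so these 70 are not set apart from other genes. Nor did the levels go by mouse throughout, since the sums of mouse 1157 were 22950.5 in its CTC and 234 in its tumor cell.

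**Figure D1:**
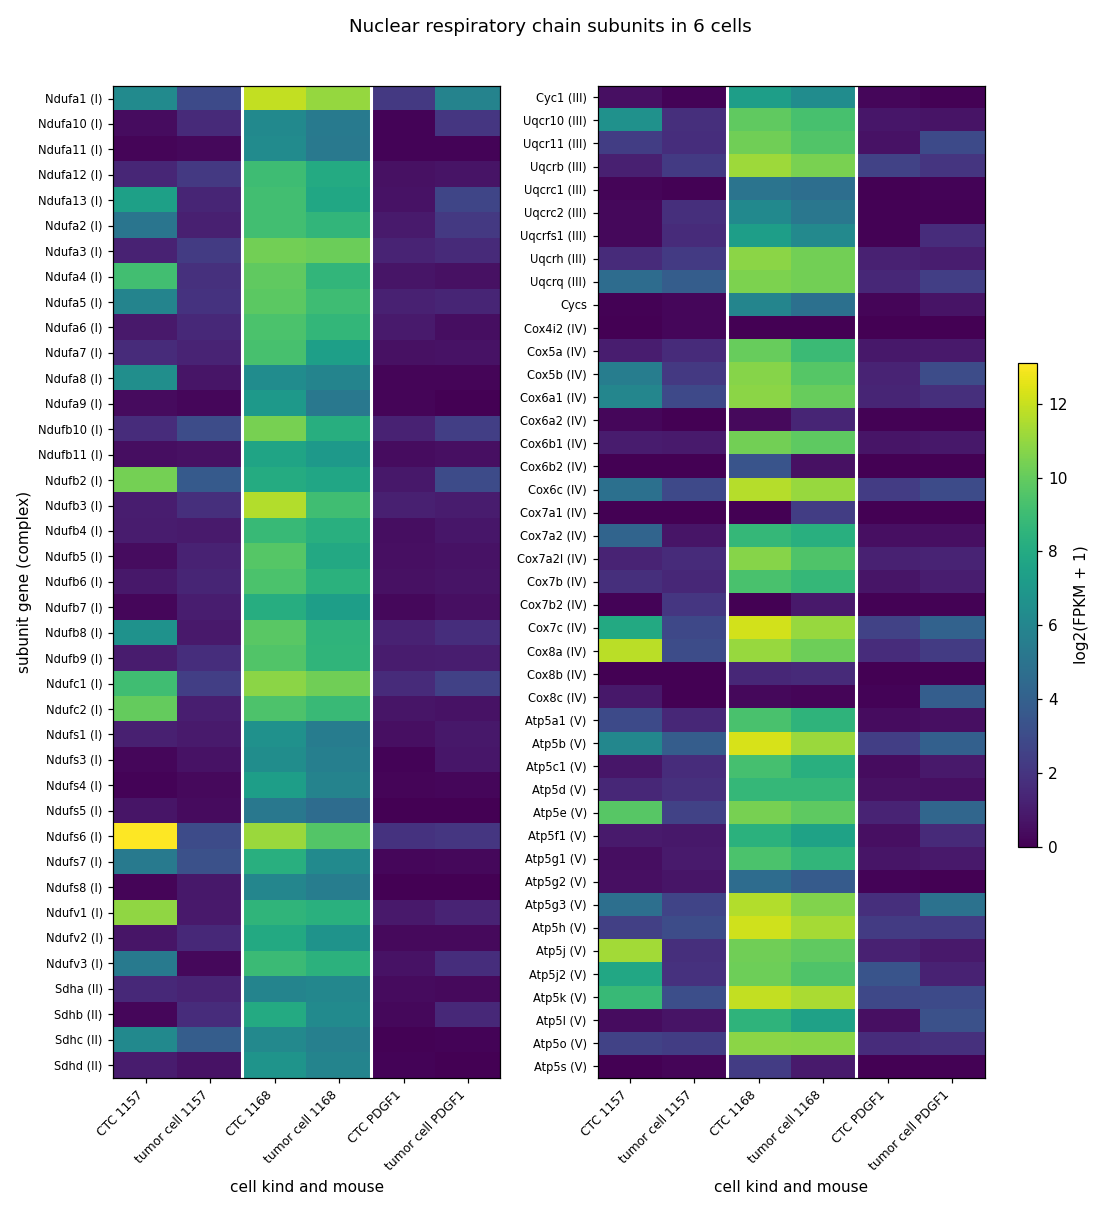
Each of 82 rows is a subunit gene with its complex, each column a cell, and the color is log2(FPKM + 1); white lines part the mice, and the CTC stands left of the tumor cell of the same mouse. Both columns of mouse 1168 are bright for nearly all genes, CTC 1157 is bright for a subset with Ndufs6 at 8653 FPKM, and the remaining columns are dark.

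Promoter sequence did not enter the choice of the genes, and part of them share short motifs there. RefSeq promoters (GRCm38.p6, 250 bases before to 50 after a transcription start) were matched by symbol for 67 of the 83 genes and were searched on both strands for 3 motifs of factors known to act on such genes: for NRF1 a GCGCA and a GCGC parted by 1 base of any kind, for YY1 the letters AAGATGGCG, and for ETS factors such as GABPA the letters CCGGAAGT. NRF1 letters stood in 25.4% of the subunit genes, against 7.76% of 14757 named protein-coding genes. YY1 letters stood in 10.4% against 2.36%, and ETS letters in 7.46% against 6.04%. At least 1 of the 3 stood in 40.3% of the subunit genes, against 15% of the named protein-coding genes. The NRF1 match was found in 7 of 32 complex I genes, 2 of 3 of complex II, 1 of 5 of complex III, 1 of 13 of complex IV and 6 of 13 of complex V. A match is a run of letters and not a measured site, and these genes were not compared by motif. Below are the promoters of Ndufs6, the subunit gene of highest FPKM in CTC 1157 (chr13:73328433-73328732, minus strand), of Cox8a, the second in that cell (chr19:7217567-7217866, minus strand), and of Ndufb3, among the genes with the largest difference within mouse 1168 (chr1:58586147-58586446, plus strand). Capitals mark the matches, which are the NRF1 letters on the opposite strand and then YY1 in Ndufs6, and the ETS letters on the opposite strand in 2 places in Cox8a. Matches did not overlap each other, and Ndufb3 has none.
Ndufs6: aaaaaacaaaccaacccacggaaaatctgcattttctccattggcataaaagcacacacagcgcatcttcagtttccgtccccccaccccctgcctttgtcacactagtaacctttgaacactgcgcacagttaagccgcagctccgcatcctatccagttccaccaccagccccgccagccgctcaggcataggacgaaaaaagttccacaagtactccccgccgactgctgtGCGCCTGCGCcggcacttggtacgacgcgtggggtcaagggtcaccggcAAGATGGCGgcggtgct
Cox8a: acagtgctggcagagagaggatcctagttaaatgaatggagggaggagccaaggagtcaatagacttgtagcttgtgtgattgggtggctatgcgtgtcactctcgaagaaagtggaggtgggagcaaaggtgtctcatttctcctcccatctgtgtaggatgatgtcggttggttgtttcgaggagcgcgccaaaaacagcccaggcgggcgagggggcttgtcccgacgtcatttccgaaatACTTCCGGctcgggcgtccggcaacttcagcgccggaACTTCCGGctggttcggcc
Ndufb3: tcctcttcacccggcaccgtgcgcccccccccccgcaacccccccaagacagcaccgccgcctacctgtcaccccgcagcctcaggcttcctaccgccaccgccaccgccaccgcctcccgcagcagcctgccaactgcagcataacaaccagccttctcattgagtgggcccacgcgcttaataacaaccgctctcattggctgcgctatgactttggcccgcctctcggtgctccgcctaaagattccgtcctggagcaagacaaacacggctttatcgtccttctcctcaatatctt

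The comparison of CTC with tumor cell asks which transcripts differ between circulating and other tumor cells. Within mouse 1168, where both cells held the subunits well above background, the CTC had the higher FPKM for most of them. Of 80 genes at 1 FPKM or more in either cell, 76 were higher in CTC 1168 and 4 lower, where 51.2% of all rows measured the same way were higher. On log2(FPKM + 1), 27 of the 80 were higher by at least 1 (22.7% of all rows were) and 1 was lower by at least 1 (24.9% of all rows were). The 27 became 14 with FPKM scaled to the same sum in every cell, and 10 either with named protein-coding genes alone scaled to that sum or with quantile normalization. The share of all rows higher by at least 1 under these scalings was not counted, so the rescaled counts are not set apart from other genes. The median difference was 0.79, against 0.04 over all rows. Each figure here sets 1 cell against 1 other, so it has no replicate and no test.

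Genes above a floor of 20 FPKM were also higher in that CTC, though by less. The floor sets no upper level, so these genes were not matched to the subunits in level. Among named protein-coding genes at 20 FPKM or more in both cells of mouse 1168, 69.8% of 1721 were higher in CTC 1168, with a median of 0.39 on the log2 scale. Of the 73 subunit genes among them, 25 were higher by at least 1 (24.5% of the named genes were) and 72 were higher by any amount, with a median of 0.80 and quartiles of 0.55 and 1.11, and 65 of the 73 lay above the median of 0.39. The direction held for fewer genes under other scalings. With FPKM scaled to the same sum in every cell, 72 of 80 were higher in CTC 1168, where 45.5% of all rows were (median 0.56, all rows -0.17). With named protein-coding genes alone scaled to that sum, 62 of 80 were higher, where 39.3% of all rows were (median 0.31, all rows -0.40). Among the 18 then lower were Sdha, Ndufv1, Atp5d, Atp5j and Cox7a2. With quantile normalization 59 of 80 were higher (median 0.25), and the share of all rows was not counted. Markers of other cell types moved between the same cells: 10 of 11 microglia and macrophage markers measured were lower in CTC 1168 by at least 1, with Lyz2 at 174 FPKM in CTC 1168 and 1202 in tumor cell 1168, while C1qa and Aif1 were listed at 0 in CTC 1168. Their part in the subunit difference was not tested.

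Complex I had the highest median difference of the complexes in mouse 1168 with more than 1 gene, 0.87 on the log2 scale. All 36 of its genes were higher in CTC 1168 as deposited, 16 of them by at least 1, though Ndufa3, Ndufa8, Ndufb2 and Ndufv1 were among those lower when named protein-coding genes were scaled to the same sum. Summed FPKM of the complex was 25905 in CTC 1168 and 12505 in tumor cell 1168. Ndufb3 and Ndufb10, accessory subunits of the membrane arm, differed most. Ndufb3 (chromosome 1 from 58586384 to 58595964, GRCm38) was at 1.06, 3059 and 1.22 FPKM in CTC 1157, 1168 and PDGF1, against 2.4, 533 and 0.981 in the paired tumor cells. Ndufb10 was at 2.17, 1357 and 1.36 FPKM in the 3 CTCs, against 7.17, 295 and 4.39 in tumor cells. For both genes the groups overlapped, and only the cells of mouse 1168 stood above 10 FPKM.

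Nuclear core subunits of complex I carry its flavin and iron-sulfur clusters. Ndufs7, which holds the last cluster before quinone, was at 40.2, 303 and 0.175 FPKM in the 3 CTCs, against 8.36, 77.4 and 0.230 in tumor cells. Ndufs1 and Ndufv2, which hold further clusters, were at 96.1 and 247 FPKM in CTC 1168, against 43.5 and 106 in its tumor cell. Ndufs3 was at 83.6 FPKM against 49.8 and Ndufs8 at 64.0 against 45.6 in the same pair. Ndufv1, which binds the flavin and takes electrons from NADH, differed little there, at 384 against 312 FPKM. Ndufa1, a small membrane subunit, was the highest of the complex in both cells of mouse 1168, at 3771 FPKM in CTC 1168 and 2085 in tumor cell 1168, and Ndufc1, another membrane subunit, was at 1842 and 1224.

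Complex II, succinate dehydrogenase, was low beside the other complexes in mouse 1168, with a sum of 495 FPKM in CTC 1168 and 252 in tumor cell 1168. Sdhb, the iron-sulfur subunit, made most of the difference, at 257 FPKM in CTC 1168 and 74.8 in tumor cell 1168. The flavoprotein gene Sdha went the other way, at 58.2 against 66.2. The membrane anchors Sdhc and Sdhd were at 71.4 and 108 FPKM in CTC 1168, against 51.1 and 60.0 in tumor cell 1168.

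In complex III all 9 genes were higher in CTC 1168 as deposited, by a median of 0.68, with sums of 8219 FPKM in CTC 1168 and 5568 in tumor cell 1168, though Uqcrq was lower under either rescaling and Uqcrc1 with named protein-coding genes scaled. Its small subunits had the highest FPKM: Uqcrb was at 2287 FPKM in CTC 1168 and 1427 in tumor cell 1168, Uqcrh, the hinge protein at cytochrome c1, at 1826 against 1288, and Uqcrq at 1474 against 1272. The redox subunits were lower. Cyc1, cytochrome c1, was at 164 FPKM against 82.2, and Uqcrfs1, the Rieske iron-sulfur protein, at 161 against 71.4. Cycs itself was at 0.0498, 60.9 and 0.127 FPKM in the 3 CTCs, against 0.186, 27.6 and 0.639 in tumor cells.

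In complex IV, 11 of 14 genes measured in mouse 1168 were higher in CTC 1168 and 3 lower, with a median of 0.68 and sums of 18646 FPKM in CTC 1168 and 10256 in tumor cell 1168. Cox7c was highest in CTC 1168, at 4689 FPKM against 2125, and Cox6c at 3205 against 2177. The common forms of subunits that have tissue forms differed by under 1 on the log2 scale, with a median of 0.62 over 5. Cox6a1 was at 1802 FPKM in CTC 1168 against 1080 in tumor cell 1168, Cox6b1 at 1292 against 929, Cox7a2 at 420 against 305, Cox7b at 652 against 424 and Cox8a at 2136 against 1199. The 3 lower genes were all tissue forms as deposited, and with named protein-coding genes scaled Cox6b1 and Cox7a2 were lower too.

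The 7 tissue forms were under 10 FPKM in the 6 cells, with the exception of Cox8c in tumor cell PDGF1. Cox6b2, the testis form of Cox6b1, was at 9.44 FPKM in CTC 1168 and 0.502 in its tumor cell, and was listed at 0 in the other 4 cells. Cox7a1 and Cox6a2, forms of heart and skeletal muscle, were at 0 and 0.277 FPKM in CTC 1168, against 4.27 and 1.52 in its tumor cell, and at 0.163 or less elsewhere. Cox8b, the third muscle form, was at 1.73 against 1.95 in that mouse and listed at 0 elsewhere. Cox7b2, known from testis, was at 0.110, 0 and 0.0661 FPKM in the 3 CTCs, against 3.27, 0.860 and 0.0699 in tumor cells. Cox4i2, known from lung, was at 0.170 in tumor cell 1157 and listed at 0 in the rest. Cox8c, known from testis, was at 14.3 FPKM in tumor cell PDGF1, against 0.0814 in its CTC, and at most 0.823 elsewhere. Of the muscle markers, Ckm, Mb, Myh6 and Myl2 were at 0.0915 FPKM or less in either cell of mouse 1168 and Tnnt2 was at 0.0667 in its CTC against 1.39 in its tumor cell, while Mb was at 8.29 in tumor cell PDGF1 and 0 in its CTC.

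All 16 complex V genes were higher in CTC 1168 as deposited, 2 of them by at least 1, with a median of 0.81. Their sums were 25076 FPKM in CTC 1168 and 15425 in tumor cell 1168. Atp5b, the catalytic beta subunit, was the highest of any subunit gene in that CTC, at 4980 FPKM against 2228, while the alpha subunit Atp5a1 was at 652 against 364. The peripheral stalk subunit Atp5h was at 4571 against 2576, and Atp5k, a membrane subunit, at 3827 against 2814. In mouse, 3 genes encode the subunit of the membrane rotor ring, and they differed widely in level: Atp5g3 was at 3083 FPKM in CTC 1168 against 1582, Atp5g1 at 667 against 389 and Atp5g2 at 23.7 against 12.6. Atp5d, the delta subunit, and Atp5o, which joins the stalk to the catalytic head, were nearly equal in both cells, at 420 against 417 and 1800 against 1745 FPKM, and both were lower in CTC 1168 under either rescaling.

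**Figure D2:**
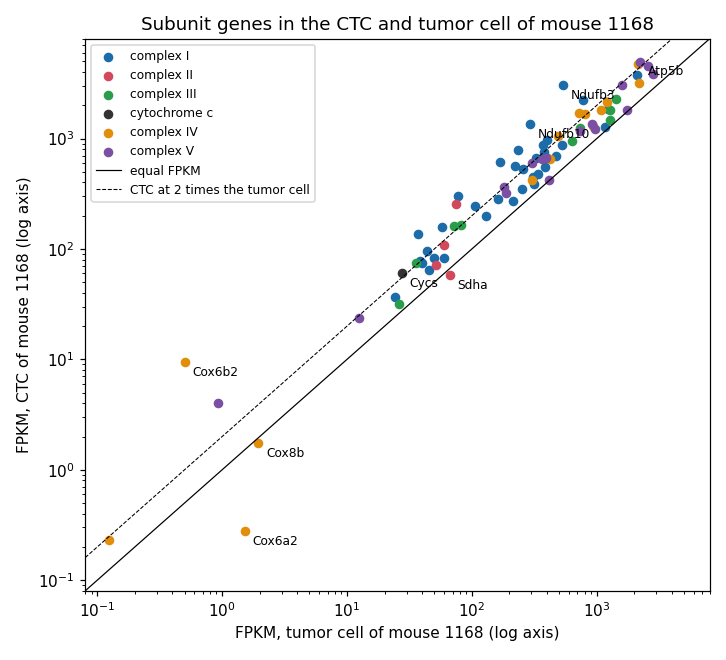
Each point is a subunit gene above 0 in both cells of mouse 1168, with FPKM of the tumor cell across and of the CTC up, both on log axes, and the color gives the complex. Of 80 genes measured, 76 lie above the line of equal FPKM as deposited (62 with named protein-coding genes scaled to the same sum), and Cox6b2, at 9.44 against 0.502 FPKM, lies farthest above it.

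Levels were ordered alike in both cells of mouse 1168. Among the 74 genes whose mean over both cells reached 20 FPKM, the Spearman correlation between the cells was 0.956, across genes of 2 libraries, which are not independent replicates. Of the 82 subunit genes located in the annotation, 34 overlap another gene, and 11 annotated pseudogenes are named after a subunit; the sources used here do not say how reads shared with them were counted. Shorter transcripts had higher FPKM, with a correlation of -0.532 in CTC 1168 and -0.501 in tumor cell 1168 over 71 of those 74 genes that have a GENCODE length, whereas length had a correlation of 0.00387 with the difference between them.

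CTC 1157 held 29 of the subunits at 10 FPKM or more, while the median over all 83 was 1.42. Of 61 genes at 1 FPKM or more in either cell of mouse 1157, 38 were higher in CTC 1157 (40.5% of all rows were), 29 by at least 1 (29% of all rows were) and 7 lower by at least 1 (37.1% of all rows were). The median was 0.66, against -0.62 over all rows, but -0.65 with FPKM scaled to the same sum and -2.18 with named protein-coding genes scaled to it, so the direction of the family depended on the scaling. Ndufs6, Cox8a and Atp5j made 63.8% of the subunit FPKM of that CTC. For 8 genes, Ndufs6, Cox8a, Atp5j, Ndufv1, Ndufb2, Ndufc2, Ndufa8 and Sdhc, CTC 1157 lay above both cells of mouse 1168. The share of all rows that did so was not counted, so these 8 are not set apart from other genes.

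Ndufs6 (chromosome 13 from 73319838 to 73328542, GRCm38), a zinc-binding accessory subunit of the NADH-oxidizing arm, was at 8653, 2253 and 2.75 FPKM in CTC 1157, 1168 and PDGF1, against 7.08, 774 and 3.19 in the paired tumor cells. Ndufv1 (chromosome 19 from 4007384 to 4012806) was at 1969, 384 and 0.839 FPKM in the 3 CTCs, against 0.846, 312 and 1.45 in tumor cells. Atp5j (chromosome 16 from 84827866 to 84835625), coupling factor 6 of ATP synthase, was at 2527, 1233 and 1.32 FPKM in the 3 CTCs, against 2.44, 969 and 0.844 in tumor cells. For each of these genes 2 CTCs were high and 1 low, while 1 tumor cell was high and 2 low, and the groups overlapped. Ndufs6 overlaps Mrpl36 and Atp5j overlaps Gabpa on the other strand, and the sources used here do not give the strand setting of the quantification.

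Members of 1 complex did not go together in mouse 1157. Taking 1% of the mean FPKM of the cells of mouse 1168 as a mark, 34 of the 74 genes at 20 FPKM or more in that mean were over it in CTC 1157, and 11 in its tumor cell. That was 45.9% of them in CTC 1157 and 14.9% in tumor cell 1157, where 42% and 40.4% of 2424 named protein-coding genes of that level were over the mark, so the share of subunits in the CTC was near that of other genes. By complex, the CTC held 16 of 36 genes of complex I, 3 of 4 of complex II, 2 of 9 of complex III, 6 of 10 of complex IV and 7 of 14 of complex V over the mark. Of the pairs that meet in the enzyme, Ndufv1 was at 1969 FPKM in CTC 1157 while its partner Ndufv2 was at 0.683, and Sdhc was at 74.0 FPKM while Sdhb was at 0.192 and Sdhd at 1.01. Tumor cell 1157 had Ndufv2 at 1.89, Sdhc at 13.4, Sdhb at 2.12 and Sdhd at 0.563 FPKM. The largest negative differences of that mouse were small in FPKM: Uqcrc2, a core protein of complex III, was at 0.201 in CTC 1157 against 2.41 in tumor cell 1157, and Cox7b2 and Sdhb are given above.

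In mouse PDGF1 both cells were low. Of 39 genes at 1 FPKM or more in either cell, 6 were higher in CTC PDGF1 (30% of all rows were), 1 of them by at least 1 (23.7% of all rows were) and 18 were lower by at least 1 (59.9% of all rows were). The median was -0.90, against -1.18 over all rows. With quantile normalization, and also with named protein-coding genes scaled to the same sum, 19 of the 39 were higher, and 9 and 13 were lower by at least 1, so these counts depended on the scaling. The shares of all rows under these scalings were not counted. Atp5j2, the f subunit of ATP synthase, was the 1 higher by at least 1 as deposited, at 9.53 FPKM in CTC PDGF1 and 1.40 in tumor cell PDGF1. Ndufa1 was lower, at 3.46 FPKM in CTC PDGF1 and 56.2 in tumor cell PDGF1, as were Atp5g3 at 2.45 against 29.9 and Atp5e at 1.51 against 19.1. Over all 83 genes, Uqcrb at 4.99 against 3.07 and Ndufa6 at 0.944 against 0.399 followed Atp5j2 among positive differences, Ndufa6 being under 1 FPKM in both cells. In the tumor cell, all but 8 of the 83 genes were under the receptor percentile of 7.10 FPKM, and in CTC PDGF1 all but 9 were under 2.70.

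**Figure D3:**
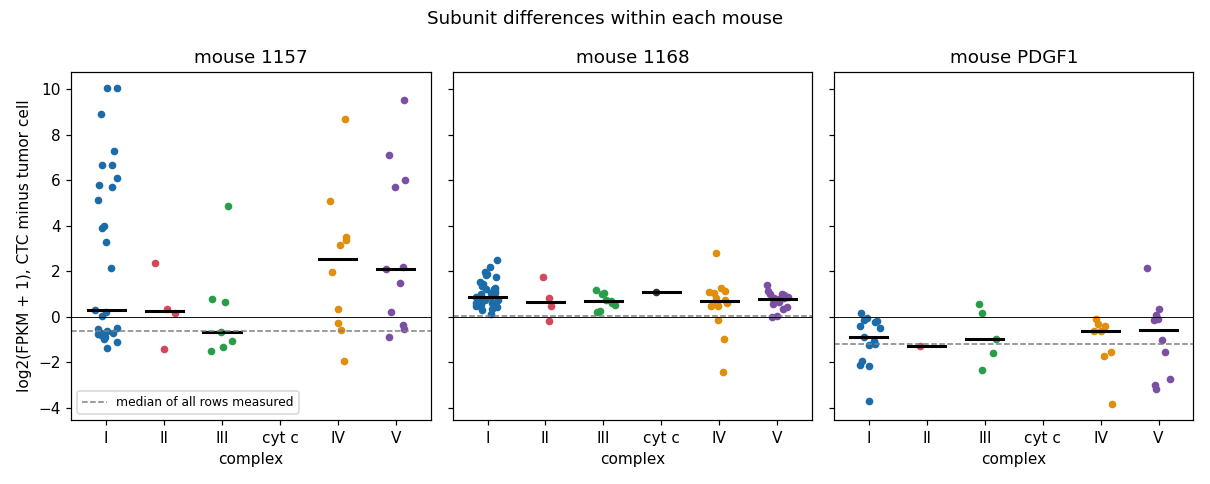
Each point is the log2(FPKM + 1) difference, CTC minus tumor cell, of a subunit gene at 1 FPKM or more in either cell of the mouse, by complex; black bars are medians and the dashed line is the median of all rows measured. The points of mouse 1157 spread up to 10.06, those of mouse 1168 gather around 0.79, and those of mouse PDGF1 lie mostly below 0, with a median of -0.90.

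The low levels of the other cells followed those of mouse 1168 to different degrees. In CTC PDGF1, the 74 genes stood at a median of 0.128% of the mean of the cells of mouse 1168, with quartiles of 0.103% and 0.163%, and their order followed that mean with a Spearman correlation of 0.937, across genes. Only Atp5j2 of the 74 was at 1% or more. Over 2424 named protein-coding genes chosen by the same level, the correlation in that CTC was 0.564 and 8.66% were at 1% or more. In tumor cell PDGF1 the correlation over subunits was 0.700 with a median of 0.184%, and 12 genes, or 16.2%, were at 1% or more; over the named genes it was 0.435, with 29.2% at 1% or more. In mouse 1157 the correlation over subunits was 0.588 in CTC 1157, with a median of 0.480%, and 0.682 in tumor cell 1157, with a median of 0.320%. Over the named genes it was 0.409 in CTC 1157 and 0.341 in tumor cell 1157. These are descriptions of single libraries, whose low values share depth and length scaling. Whether reads of the libraries of mouse 1168 were counted in others was not tested.

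**Figure D4:**
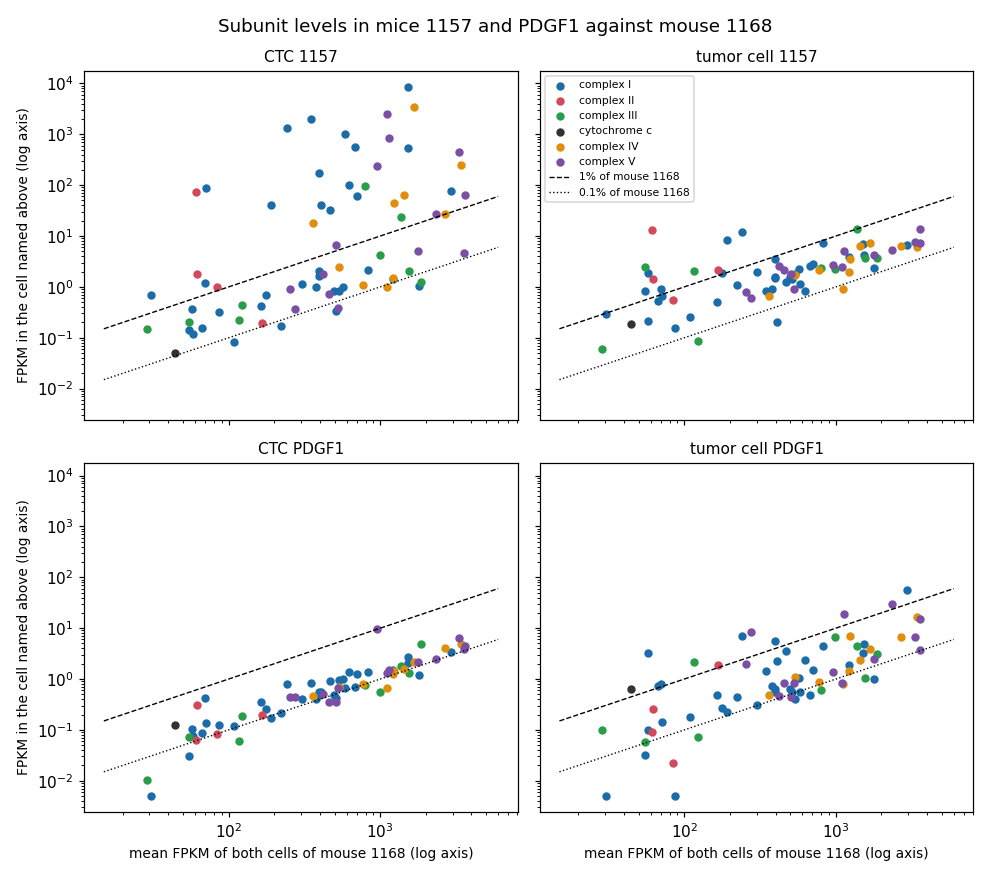
FPKM of each subunit gene in the 4 cells of mice 1157 and PDGF1 is drawn against the mean FPKM of both cells of mouse 1168, on log axes, with genes listed at 0 drawn at the lower edge; CTCs are on the left and tumor cells on the right. CTC PDGF1 forms a narrow band around 0.128% of mouse 1168, while CTC 1157 splits into 34 genes above the 1% line and the rest below it.

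In a fit without the mouse, no subunit gene differed over the 3 mice by more than the spread between cells. Limma on log2(FPKM + 1) called 0 of 4165 rows at 1 FPKM or more in at least 3 cells (0% of rows at an adjusted p under 0.05, and 7 rows or 0.168% at an unadjusted p under 0.05). Of the 83 subunit genes 62 passed that filter, and of these 0 were called and 0 had an unadjusted p under 0.05. The filter let in more genes through the tumor cells. Of the 62, 12 had 2 or more tumor cells and under 2 CTCs at 1 FPKM, and 5 the reverse. Ndufa10, Uqcrfs1 and Atp5l, named below, were among the 12. The median difference over the 62 was 0.31, against -0.06 over all rows tested. With no filter it was 0.22 over all 83 subunit genes, against -0.04 over the 32679 rows above 0 in any cell. The largest differences with the smallest p were 3.82 for Ndufs6 (SE 4.28, limma adjusted p = 0.99994), 3.40 for Atp5j (SE 4.52) and 3.31 for Ndufv1 (SE 4.45). In the other direction they were -0.71 for Ndufa10 (SE 2.58), an accessory subunit of complex I, -0.58 for Uqcrfs1 (SE 2.80) and -0.66 for Atp5l (SE 3.40), the g subunit of ATP synthase. Ndufa10 was at 0.374, 74.7 and 0.105 FPKM in the 3 CTCs, against 1.91, 40.0 and 3.23 in tumor cells. Uqcrfs1 was at 0.221, 161 and 0.0594 in the 3 CTCs, against 2.02, 71.4 and 2.2 in tumor cells, and Atp5l at 0.365, 365 and 0.435 against 0.600, 182 and 8.60.

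For no subunit gene did the CTC values lie all above or all below the tumor cell values (0.264% of rows tested lay above and 1.3% below), and 0 were higher or lower by at least 1 in all 3 mice (0.0865% and 0.185% of rows). By any amount, 8 were higher in the CTC of all 3 mice: Ndufa4, Ndufa9, Ndufc2, Sdhd, Cyc1, Uqcr10, Atp5j and Atp5j2. Of these 6 were among the tested rows, 9.68% of the tested subunits, against 7.39% of all rows tested, which is near the background. Atp5j2 was the highest of them in mouse PDGF1 and was at 234, 1169 and 9.53 FPKM in the 3 CTCs, against 2.70, 732 and 1.40 in tumor cells. The groups overlapped, since tumor cell 1168 lay above the CTCs of both other mice. The limma p-values come from a fit without the mouse and measure the spread between the 3 libraries of a kind. With 1 sample of a kind from each mouse, spread between mice cannot be told from spread between cells or libraries. The sign of the median turned when 1 library was left out, as given with the processing alternatives.

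The mitochondrially encoded partners of complexes I and III were lower in sum in CTC 1168 as deposited, while those of complexes IV and V were slightly higher. These sums were not rescaled, although rescaling lowered the differences of the nuclear genes. All 13 genes summed to 6856 FPKM in CTC 1168 and 13755 in tumor cell 1168, with 0 higher and 5 lower by at least 1 and a median difference of -0.71. In complex I the 36 nuclear genes summed to 6.21 times the 7 mitochondrial ones in CTC 1168 and to 1.28 times in tumor cell 1168. In complex III the ratio to mt-Cytb, cytochrome b, was 4.03 in CTC 1168 and 1.63 in tumor cell 1168. In complex IV it was 33.4 against 22.1, and in complex V 288 against 215. mt-Nd1 and mt-Nd2, core membrane subunits of complex I, were at 1334 and 932 FPKM in CTC 1168, against 3321 and 2135 in tumor cell 1168, while mt-Co1, which holds the oxygen site of complex IV, was at 454 against 344. The 3 mitochondrial genes of complex IV summed to 559 FPKM in CTC 1168 and 464 in tumor cell 1168, and the 2 of complex V to 86.9 and 71.8. In complex IV only mt-Co1 was higher in CTC 1168. There mt-Co2 was at 76.7 FPKM against 81.7 in tumor cell 1168, and mt-Co3 at 28.6 against 39.3. In mouse PDGF1 the sum was 27.0 FPKM in CTC PDGF1 and 1237 in tumor cell PDGF1, where the mitochondrial genes exceeded the nuclear ones in complexes I, III and IV. In mouse 1157 it was 86.1 in CTC 1157 and 24.2 in tumor cell 1157.

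**Figure D5:**
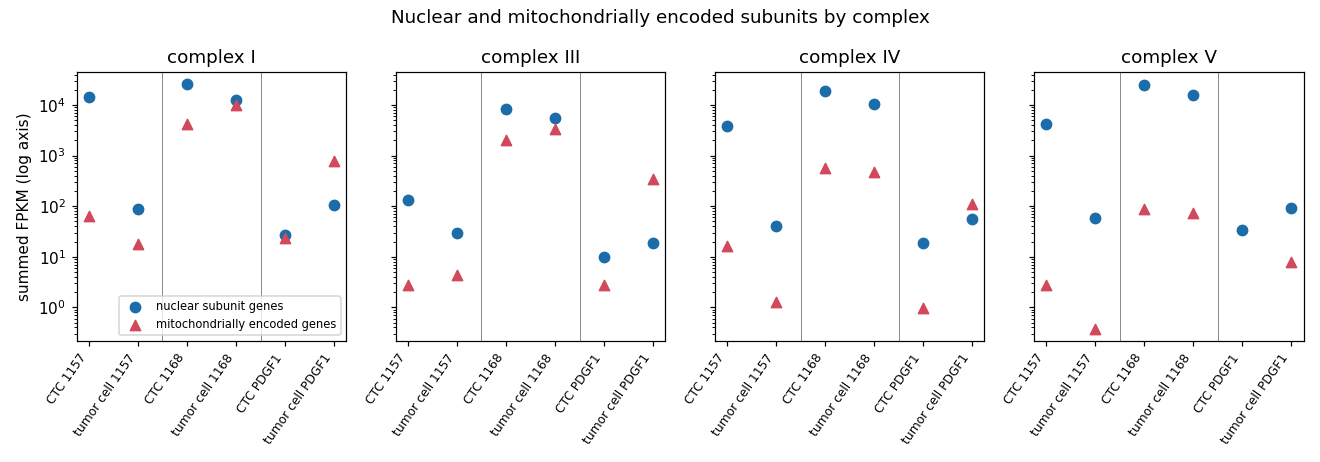
Summed FPKM (log axis) of the nuclear subunit genes (circles) and the mitochondrially encoded genes (triangles) of complexes I, III, IV and V is shown in each cell, with the CTC left of the tumor cell of the same mouse; the mitochondrial genes of complex V were listed at 0 in CTC PDGF1 and have no symbol there. In mouse 1168 the circles of complex I are at 25905 in CTC 1168 and 12505 in tumor cell 1168 and the triangles at 4171 and 9794.

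Other genes of the pathway were counted in mouse 1168 in the same way, where 22.7% of all rows were higher by at least 1 and 24.9% lower by at least 1. Few of them passed the filter of the limma test: 1 gene of complex I assembly, 0 of complex II, 3 of complex III, 6 of complex IV, 6 citric acid cycle enzymes, 5 carriers and outer membrane proteins and 5 regulators. Limma called 0 of those tested. Of 13 assembly factors of complex I, 7 were higher in CTC 1168 by at least 1 and 2 lower; Ndufaf3 was at 112 FPKM against 15.1 and Ndufaf2 at 28.9 against 85.7. Of 4 for complex II, 1 was higher and 0 lower, and of 6 for complex III, 2 and 0, with Uqcc2 at 432 against 300 FPKM. Of 19 for complex IV, 7 were higher and 4 lower, with the copper chaperone Cox17 at 808 against 386. Of 13 citric acid cycle enzymes, 5 were higher and 0 lower, with fumarate hydratase, Fh1, at 275 FPKM against 102 and malate dehydrogenase, Mdh2, at 163 against 129. Of 12 carriers and outer membrane proteins, 2 were higher and 0 lower, with the ADP/ATP carrier Slc25a4 at 2248 FPKM against 803. Of 12 measured regulators of mitochondrial biogenesis, 4 were higher and 3 lower, near the shares over all rows. Ppargc1a, the coactivator PGC-1 alpha, was at 12.3 FPKM against 0.785, the motif factors Yy1 and Nrf1 at 30.7 against 40.0 and 2.53 against 6.11, and Gabpa at 0.631 against 3.33.

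Some subunit genes have symbols outside the pattern, and a list of them was added after their values were seen. In mouse 1168, 0 of the 3 measured differed by at least 1, with a median of -0.04. Ndufab1, the acyl carrier protein of complex I, was at 626 FPKM in CTC 1168 against 829 in tumor cell 1168, Usmg5, a small ATP synthase protein, at 1820 against 1874, and 2010107E04Rik at 3378 against 2860.

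Among the factors of complex V, Atpif1, which inhibits ATP synthase when it runs in reverse, was higher in the CTC of each mouse. It was at 44.4, 1015 and 4.29 FPKM in the 3 CTCs, against 2.07, 247 and 0.727 in tumor cells, and the groups overlapped, since tumor cell 1168 lay above the CTCs of both other mice. It was singled out after its values were seen. The complex V assembly factor Atpaf2 was at 0.321, 0.452 and 0.0143 FPKM in the 3 CTCs, against 6.22, 2.87 and 5.30 in tumor cells. The groups did not overlap, but Atpaf2 passed the filter of the limma test only through the 3 tumor cells. Being under 1 FPKM in all 3 CTCs, it could not overlap once it had passed. The value of tumor cell PDGF1 also lay under its receptor percentile of 7.10. Atpaf2 too was singled out after its values were seen, and 1.3% of rows tested lay below in that way.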

How the data were processed

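RNA of 6 samples, a CTC and a tumor cell sample from each of 3 mice, was sequenced after 3 rounds of linear amplification, per the labels' protocols. The authors deposited FPKM per gene, made with STAR 2.4.2a and Cufflinks 2.2.1 on GRCm38, per the submitters' processing notes. Depth per cell is unknown, so no counting interval is given, and a gene at 0 is only listed at 0. Of 45038 rows, 27 with a name turned into a date and 207 with a repeated name were left out. Columns of other samples numbered 0.

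Differences are CTC minus tumor cell on log2(FPKM + 1), which understates those of low genes. Limma 3.58.1 in R 4.3.3, with a mean-variance trend, tested rows with 3 or more of 6 cells at 1 FPKM or above, two-sided, with Benjamini-Hochberg adjustment at 0.05, and was tested on simulated data. Within a mouse, genes at 1 FPKM or more in either cell were described. Coordinates and lengths come from GENCODE mouse release 21 (GRCm38). Other steps used Python 3.11.15 with scipy 1.17.1, numpy 2.4.6, pandas 2.3.3 and, for the plots, matplotlib 3.10.9.

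The genes, lists and tests were chosen with earlier results of these data known. Named genes were the 3 of highest mean FPKM in each complex, the 3 of smallest limma p in each direction, the 3 of largest difference in each direction within each mouse, the tissue forms and common forms of subunits and the redox and catalytic core, with up to 3 examples of other lists; others were chosen after their values were seen. The values of 1 subunit gene are not reported here, though it is counted in the totals. The labels pair the cells by mouse. After removal of group means, the correlation across genes between the paired cells was 0.178 (mouse 1157), 0.689 (mouse 1168) and 0.428 (mouse PDGF1). Alternatives changed the pseudocount, the filter, the scaling, the block and the cells included.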

Additional observations from a re-analysis of the deposited data

How the results depend on the processing

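The count of subunit genes called by limma was 0 in every alternative run, including mouse as a replicate block (0 subunits, 1 of 4165 rows called), so the block changed no other call. The median difference over mice, 0.22 on the log2 scale, turned to -0.29 with FPKM scaled to the same sum in every cell, to -0.66 with named protein-coding genes scaled to that sum and to -0.0367 without both cells of mouse 1168. Leaving out 1 cell gave between -1.81 (without CTC 1168) and 2.56 (without tumor cell 1168); it was 1.23 without CTC 1157, 1.69 without CTC PDGF1, -0.53 without tumor cell 1157 and -0.61 without tumor cell PDGF1. In mouse 1157 the median of 0.66 turned to -0.65 with the same sum and to -2.18 with named protein-coding genes scaled. It was 0.19 with no filter, 2.14 over genes at 1 FPKM in both cells and 3.45 over genes at 1% of mouse 1168. In mouse 1168 the median of 0.79 was 0.25 with quantile normalization and 0.31 with named protein-coding genes scaled. In mouse PDGF1 the median of -0.90 was -0.22 with a pseudocount of 10, -0.0356 with quantile normalization, -0.12 with no filter, -0.45 over genes at 1 FPKM in both cells, -0.10 with named protein-coding genes scaled and -1.94 over genes at 1% of mouse 1168.

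At levels of 5 and 10 FPKM, the genes detected were 31 and 29 in CTC 1157, 2 and 0 in CTC PDGF1, 16 and 4 in tumor cell 1157 and 13 and 6 in tumor cell PDGF1. In mouse 1157 the log2 ratio of medians in place of sums was -0.21 for complex I, -0.34 for II, -0.94 for III, -0.68 for IV and 0.95 for V, where the sums gave positive ratios, and the sum of complex III gave 0.56 with the same sum. Ndufv1 turned to -0.0596 without both cells of mouse 1157. With a pseudocount of 10, Ndufa10 turned to 0.0578, Uqcrfs1 to 0.19 and Atp5l to 0.0320. Leaving out 1 cell gave between -2.69 and 0.47 for Ndufa10 and between -2.97 and 0.93 for Uqcrfs1. For Atp5l, which passed the filter in 3 of the 6 removals, it gave between -2.23 and 0.70, and Atp5l was at 0.38 without both cells of mouse PDGF1. The scaling over named protein-coding genes and the 1% mark were chosen after seeing the data. The causes were not tested. With FPKM alone, the number of reads behind a low value is unknown, which limits all cells outside mouse 1168.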
